A study of Drosophila melanogaster and Drosophila mauritiana and Drosophila simulans with 22 samples.

Results

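Act88F, Act79B and Mlc2, genes of muscle actin and muscle myosin, were followed through testis RNA of 4 Drosophila species and 3 kinds of hybrid males. They were taken by name: rows of the array table whose single gene symbol was Act88F (Entrez gene 41885), Act79B (40444) or Mlc2 (43587). Each has 2 rows, so these 3 genes are 3 of the 6793 genes named on the array, and all 3 were among the 5107 genes tested. Every array set amplified Cy5-labelled RNA from a pool of 200 testes, dissected free of accessory glands from 4 day old males, against Cy3-labelled RNA of whole D. melanogaster males of strain 14021-0231.00. The hybrids all had D. simulans mothers (strain 14021-0251.2) and are named by the father: the melanogaster hybrid (father strain 14021-0231.00), the mauritiana hybrid (father strain 14021-0241.1) and the sechellia hybrid (father stock not numbered). The pure species were D. mauritiana (14021-0241.1), D. sechellia (#12 in the labels of replicates 1 and 2, not given for replicate 3), D. simulans (14021-0251.2) and D. melanogaster (14021-0231.00). There were 4 arrays of D. mauritiana and 3 of every other group, 22 in all. The flies were kept at 25 °C with 12 h of light.

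Muscle contracts when myosin motors pull on actin filaments, and both proteins come from families of related genes used in different muscles. Act88F is known as the actin of the indirect flight muscles and Act79B as an actin of tubular muscles of the adult thorax and legs. Mlc2 encodes the regulatory light chain of muscle myosin. The fly testis lies in a sheath of its own muscle cells, while a whole male carries flight, leg, body wall and gut muscle, so muscle RNA in a testis pool is set here against the RNA of all muscles of the fly. In RNA of pooled testes, fewer muscle cells and less RNA per cell cannot be told apart.

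All values are log2 ratios of testes over whole males, with each array centred on its median, so 0 is the level of the median gene row. A difference was called where limma, fitted to all 5107 genes and 22 arrays at once, gave an adjusted p under 0.05 (Benjamini-Hochberg). Where the arrays of 2 groups are said not to overlap, the share of all genes for which this held was not counted. Nor was the share of all genes with an unadjusted p under 0.05. The percentages of all genes lower or higher in a comparison are calls by the adjusted p. Nothing in the labels tells whether numbered replicates were separate cultures, so the p-values cover the spread among these pools, which may be technical. Late spermatid genes, which mark testis, were higher in melanogaster testes than in whole males for 10 of 12 genes, where 30.4% of all genes were higher. Arrays held 13019 to 27648 values, and their number limits the precision. Some arrays stood apart. The sechellia arrays correlated with each other across genes at only 0.30 to 0.65, and sechellia hybrid 2 with its 2 partners at 0.36 and 0.41. Mauritiana 2 correlated with the other mauritiana arrays at 0.73 to 0.79. Simulans 1 and 2 correlated at 0.98, melanogaster 1 and 2 at 0.97 and sechellia hybrid 1 and 3 at 0.83, and these 3 pairs were averaged in an alternative. Other pairs correlated above 0.83 too, among them melanogaster hybrid 1 and 3 at 0.92, mauritiana 3 and 4 at 0.89 and mauritiana hybrid 2 and 3 at 0.88. Whether any pair was separate RNA pools or 1 pool run again is not in the labels. The duplicate spots of Act88F and Act79B had values on every array, with median gaps of 0.12 and 0.09 and largest gaps of 0.48 and 0.53. Of the 44 Mlc2 spots 40 had a value, their median gap was 0.20, and the largest, on sechellia 1, was 1.90. The sequences of the spotted probes were not used here, and since actin genes resemble each other, whether an actin spot also bound RNA of another actin gene was not tested.

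For D. melanogaster, testis and whole male came from 1 strain. All 3 genes were lower in testis than in the whole male, and the ratio was lowest for Mlc2. Mlc2 lay at -3.30, -3.48 and -4.53 on melanogaster arrays 1, 2 and 3, a mean of -3.77 ± 0.67 (SD, n = 3). Act79B lay at -2.15, -2.20 and -2.39, and its mean was -2.25 ± 0.12 (SD, n = 3). Act88F lay at -1.36, -1.54 and -1.88, with a mean of -1.59 ± 0.26 (SD, n = 3). Every array was below 0 for every gene. Against the median row this is a level 13.7-fold lower for Mlc2 (adjusted p = 6.05e-07, limma), 4.74-fold lower for Act79B (adjusted p = 0.00386) and 3.02-fold lower for Act88F (adjusted p = 0.00653). Of all tested genes 13.9% were lower and 30.4% higher in this comparison, so 3 of 3 lower calls stand against 13.9%. Only 0.352% of the tested genes had a lower mean than Mlc2, 2.06% a lower one than Act79B and 4.91% a lower one than Act88F. The call of Act88F ended without melanogaster 3 (adjusted p = 0.0505), with arrays scaled to 1 spread (0.0625) and with the replicate number as a block (-1.07, adjusted p = 0.0576). The block fit takes the mean over 4 replicate numbers, and only mauritiana has a replicate 4. Its melanogaster value thus draws on mauritiana 4, so this fit cannot test the melanogaster level alone. The dye order was the same on all arrays and only testis RNA was amplified, and the part of either in these ratios was not tested. How much the whole-male RNA itself varies does not enter the test.

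**Figure D1:**
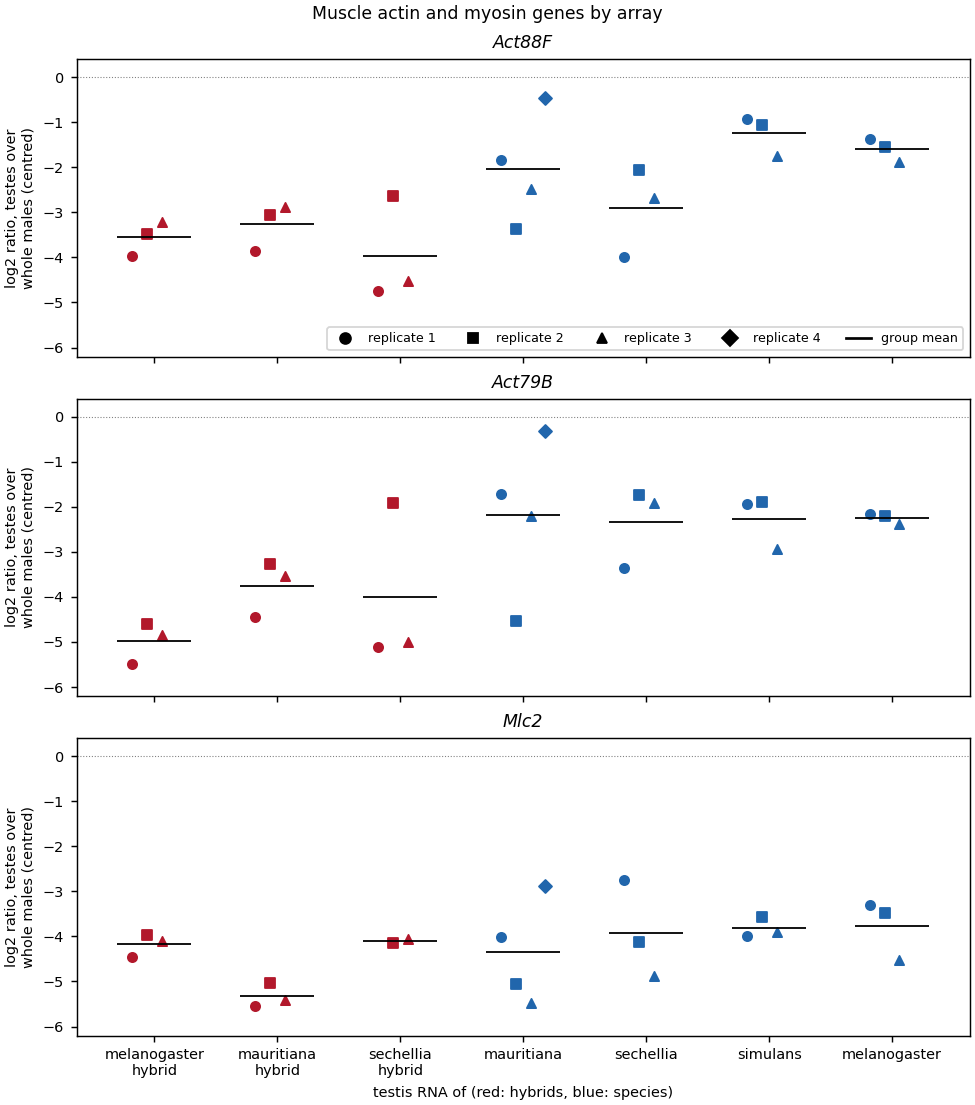
Centred log2 ratio of testes over whole males (vertical axis) on each array for Act88F, Act79B and Mlc2. Points are arrays, with the shape giving the replicate number, red for hybrids and blue for species, and bars are group means. The melanogaster and mauritiana hybrid arrays of Act88F and Act79B lie below all simulans and melanogaster arrays, and sechellia hybrid 2 lies above its 2 partners for both actins.

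The group means of both actins were lower in all 3 hybrids than in all 4 species, and those of Mlc2 were not. From lowest to highest, mean Act79B ran melanogaster hybrid (-4.97), sechellia hybrid (-4.01), mauritiana hybrid (-3.75), sechellia (-2.34), simulans (-2.26), melanogaster (-2.25) and mauritiana (-2.19). The 4 species means of Act79B span 0.15, less than the SD of the arrays within 3 of the 4 species. Mean Act88F ran sechellia hybrid (-3.96), melanogaster hybrid (-3.56), mauritiana hybrid (-3.27), sechellia (-2.91), mauritiana (-2.04), melanogaster (-1.59) and simulans (-1.24). Mean Mlc2 ran mauritiana hybrid (-5.33), mauritiana (-4.36), melanogaster hybrid (-4.17), sechellia hybrid (-4.11), sechellia (-3.92), simulans (-3.82) and melanogaster (-3.77). For each gene the arrays of neighbouring groups in these orders overlapped in every case, so only groups further apart in the order can be separated. Of the 9 hybrid arrays, 9 lay below every simulans array for Act88F and 8 for Act79B, and for Mlc2 7 of 8 did. Arrays of other pure species did so too. They included all sechellia arrays for Act88F (-4.00 to -2.06), and mauritiana 2 and sechellia 1 for Act79B (-4.53 and -3.36). For Mlc2 they included mauritiana 1, 2 and 3 (-4.02, -5.05 and -5.47). The share of all genes with hybrid arrays below simulans in this way was not counted.

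The melanogaster hybrid had the lowest mean Act79B, but no difference in Act79B between hybrids was called. Sechellia hybrid 1 and 3, at -5.10 and -5.00, lay below melanogaster hybrid 2 and 3. Arrays 1, 2 and 3 of the melanogaster hybrid held -5.48, -4.60 and -4.84, against -1.95, -1.90 and -2.94 in simulans. All 3 hybrid arrays were thus below all arrays of simulans and, at -2.15 to -2.39, of melanogaster. The difference of means was -2.71 ± 0.83 (SE) from simulans, a 6.54-fold lower level (adjusted p = 0.0202, limma), and -2.73 ± 0.83 from melanogaster, 6.62-fold lower (adjusted p = 0.0155). Act88F, the flight muscle actin, held -3.96, -3.48 and -3.22 in the hybrid, against -0.93, -1.06 and -1.75 in simulans. Again no hybrid array reached a parental one. The difference was -2.31 ± 0.63 (SE) from simulans (4.96-fold lower, adjusted p = 0.0101) and -1.96 ± 0.63 from melanogaster (3.89-fold lower, adjusted p = 0.0224). The myosin light chain gene was not called. Mlc2 held -4.45, -3.96 and -4.11 in the hybrid, against -3.98, -3.57 and -3.90 in simulans, and these arrays overlapped. The difference was -0.35 ± 0.57 (SE) from simulans (adjusted p = 0.768) and -0.40 ± 0.57 from melanogaster (adjusted p = 0.657). Of the 3 genes 2 were thus called lower against each parent, where 13.9% of all tested genes were lower and 9.69% higher than in simulans, and 20.1% lower and 10.3% higher than in melanogaster.

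These 4 calls depended on how the arrays were counted. With simulans 1 and 2, melanogaster 1 and 2 and sechellia hybrid 1 and 3 averaged they ended, with differences of -2.54 (adjusted p = 0.0911, limma) for Act79B and -2.18 (0.0572) for Act88F from simulans, and -2.69 (0.056) and -1.89 (0.0839) from melanogaster. They ended as well with the simulans and melanogaster pairs alone averaged (adjusted p = 0.0908, 0.054, 0.0559 and 0.0806 in the same order), and with those and the melanogaster hybrid, mauritiana and mauritiana hybrid pairs averaged (0.196, 0.1, 0.127 and 0.129). The Act79B call against simulans also ended without simulans 1 or 2 or hybrid 1 or 3 (adjusted p = 0.074, 0.0758, 0.0783 and 0.0511), and that against melanogaster without hybrid 1 (0.062). The Act88F call against melanogaster ended without melanogaster 1 or 2 or hybrid 1 or 2 (adjusted p = 0.0745, 0.061, 0.0825 and 0.0504), and that against simulans in none of the fits that left out 1 array. The difference stayed negative in all of these fits.

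In the mauritiana hybrid 0 of 3 differences passed against either parent in limma (at an unadjusted p under 0.05, 2 passed against simulans and 0 against mauritiana). All 3 genes lay below simulans on every array there. The share of all genes was counted neither for this pattern nor at the unadjusted p. Act88F held -3.87, -3.06 and -2.87 in the hybrid, against -1.84, -3.36, -2.49 and -0.47 in mauritiana 1 to 4. Act79B held -4.44, -3.27 and -3.53 in the hybrid, against -1.72, -4.53, -2.21 and -0.31 in mauritiana. For both actins the other 3 mauritiana arrays lay above all hybrid arrays, and mauritiana 2 did not. Mlc2 held -5.55, -5.04 and -5.41 in the hybrid, against -4.02, -5.05, -5.47 and -2.88 in mauritiana, and lay lowest of all groups. The differences from simulans were -2.02 ± 0.63 (SE) for Act88F (adjusted p = 0.0786, limma), -1.49 ± 0.83 for Act79B (0.366) and -1.51 ± 0.57 for Mlc2 (0.147). Those from mauritiana were -1.23 ± 0.59 (SE), -1.56 ± 0.78 and -0.97 ± 0.53 (adjusted p = 0.293, 0.311 and 0.375). The background of calls was small here, 0.842% of genes lower and 2.76% higher than in simulans, and 1.76% lower and 2.74% higher than in mauritiana. With the spread taken from the arrays compared alone, all 3 genes passed as lower than in simulans (adjusted p = 0.0105 for Act88F, 0.0488 for Act79B and 0.0116 for Mlc2). Act88F passed as well without the sechellia arrays (adjusted p = 0.0277), and without mauritiana 4, sechellia 1 or sechellia hybrid 2 alone (0.0453, 0.0392 and 0.0448). Without the 2 arrays that stand apart, mauritiana 2 and sechellia hybrid 2, Act88F passed against simulans (adjusted p = 0.0234) and Act79B against mauritiana (-2.34, adjusted p = 0.0085).

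In the sechellia hybrid, arrays 1 and 3 held the lowest Act88F values of the study and array 2 did not follow them. Act88F held -4.75, -2.63 and -4.51 on hybrid arrays 1, 2 and 3, against -4.00, -2.06 and -2.68 in sechellia. It was called lower than in simulans by -2.72 ± 0.63 (SE), 6.58-fold (adjusted p = 0.00764, limma), and even array 2 lay below all simulans arrays. Weaker binding of RNA from sechellia alleles to melanogaster probes cannot be told apart from a lower level here. Against sechellia the difference was -1.05 ± 0.63 (adjusted p = 0.295). Act79B held -5.10, -1.92 and -5.00 in the hybrid, against -3.36, -1.73 and -1.92 in sechellia. Array 2 thus lay within the species arrays while arrays 1 and 3 lay below every species array. The difference was -1.75 ± 0.83 (SE) from simulans (adjusted p = 0.187) and -1.67 ± 0.83 from sechellia (adjusted p = 0.195). Without array 2 the differences were -2.79 and -2.72 and passed (adjusted p = 0.0249 and 0.0288). Mlc2 had no value on array 1, and held -4.15 on array 2 and, from 1 spot, -4.06 on array 3, against -2.76, -4.13 and -4.87 in sechellia. Its differences were -0.29 ± 0.63 from simulans (adjusted p = 0.841) and -0.19 ± 0.63 from sechellia (adjusted p = 0.888). Of the 3 genes 1 was called lower than in simulans, where 12.3% of genes were lower and 1.35% higher, and 0 differed from sechellia by limma, where 6.01% were lower and 5.4% higher. At an unadjusted p under 0.05, Act79B passed as well against simulans, and 0 of 3 passed against sechellia. The call of Act88F ended with the 3 array pairs averaged (-2.26, adjusted p = 0.178, limma), and with 2 or 5 pairs averaged, which leave out the sechellia hybrid pair (-2.59 each, adjusted p = 0.0587 and 0.0596).

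**Figure D2:**
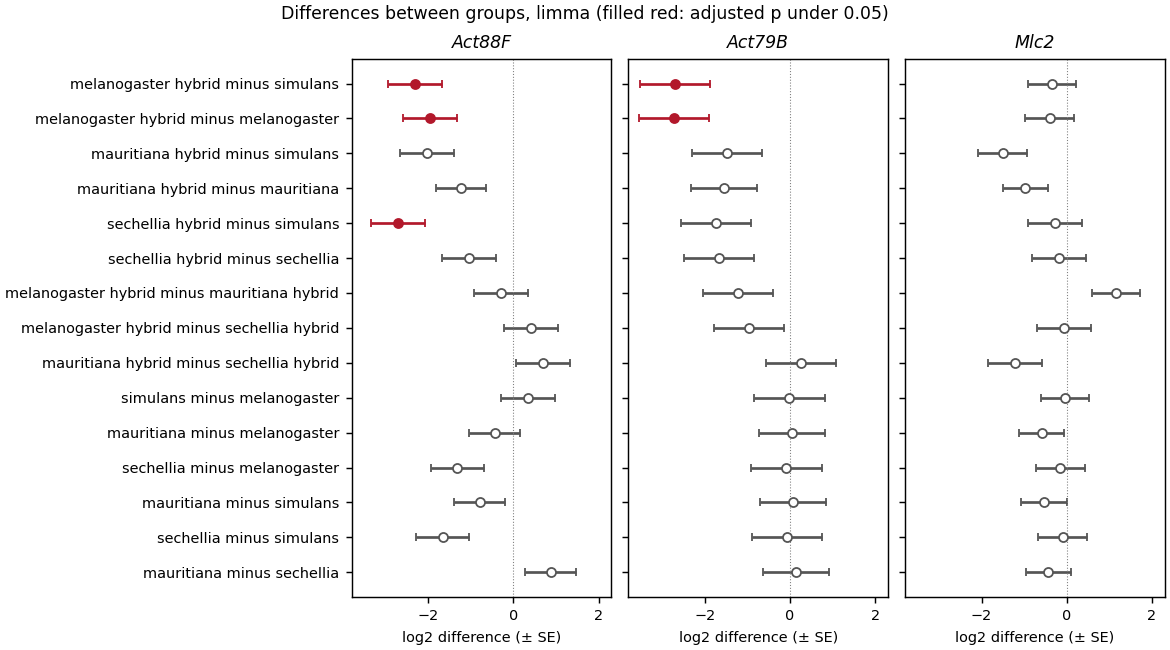
Log2 difference between groups with its SE (horizontal axis, limma) for each of 15 comparisons (vertical axis) and each gene. Filled red points passed an adjusted p under 0.05. They are Act88F and Act79B in the melanogaster hybrid against both parents, and Act88F in the sechellia hybrid against simulans. All hybrid-parent differences lie below 0.

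Since all hybrids had simulans mothers, a difference between 2 hybrids also tests whether they departed from simulans by different amounts. None of the 9 tests passed in limma, and none did at an unadjusted p under 0.05. Act79B in the melanogaster hybrid differed from the mauritiana hybrid by -1.22 ± 0.83 (SE, adjusted p = 0.323) and from the sechellia hybrid by -0.96 ± 0.83 (adjusted p = 0.508). Act88F differed by -0.29 ± 0.63 (adjusted p = 0.804) and 0.41 ± 0.63 (adjusted p = 0.761) in the same comparisons. Mlc2 differed by 1.16 ± 0.57 (SE) in the melanogaster hybrid against the mauritiana hybrid (adjusted p = 0.151), and by -1.22 ± 0.63 in the mauritiana hybrid against the sechellia hybrid (adjusted p = 0.212). For the melanogaster hybrid against the mauritiana hybrid no array overlapped, with Act79B all lower and Mlc2 all higher. Both passed with the spread of these arrays alone (adjusted p = 0.0324 and 0.0145). In this comparison 18.2% of all genes were lower and 7.95% higher. Between the melanogaster and sechellia hybrids 6.09% were lower and 12.6% higher, and between the mauritiana and sechellia hybrids 1.53% were lower and 16% higher.

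Between the species no difference of Act88F, Act79B or Mlc2 was called by limma in 18 tests, and 1 had an unadjusted p under 0.05. RNA of another species may bind melanogaster probes less well, which cannot be told apart from a lower level in these comparisons. The same holds for the mauritiana and sechellia hybrids against simulans, and for the melanogaster hybrid against melanogaster. The largest differences were those of Act88F in sechellia, -1.67 ± 0.63 (SE) against simulans (adjusted p = 0.0569, limma) and -1.32 ± 0.63 against melanogaster (adjusted p = 0.114). All 3 sechellia arrays of Act88F lay below all arrays of both species. That against simulans passed with the replicate number as a block (adjusted p = 0.0351), without mauritiana 2, mauritiana 4, sechellia 2 or sechellia hybrid 2 (adjusted p = 0.042, 0.0339, 0.0286 and 0.0363) and without both arrays that stand apart (0.0215). Act79B differed by -0.09 ± 0.83 in sechellia and 0.05 ± 0.78 in mauritiana against melanogaster (SE), so a 2-fold difference lies within 2 SE either way. In mauritiana its 4 arrays ran from -4.53 to -0.31, with an SD of 1.75, against 0.12 in melanogaster. Mlc2 was at -0.59 ± 0.53 (SE, adjusted p = 0.565) in mauritiana and -0.15 ± 0.57 (adjusted p = 0.867) in sechellia against melanogaster. After quantile normalization Mlc2 turned round in sechellia, to 2.20 against melanogaster and 2.84 against simulans (adjusted p = 0.00149 and 0.000145, limma), and it was then lower in the sechellia hybrid than in sechellia (-2.31, adjusted p = 0.0123) and in mauritiana than in sechellia (-2.77, adjusted p = 0.000201).

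The calls over all genes between species were as follows. In simulans against melanogaster 1.02% were lower and 0.0392% higher. In mauritiana 4.44% were lower and 2.19% higher than in melanogaster, and 4.29% lower and 6.74% higher than in simulans. In sechellia 26.1% were lower and 7.66% higher than in melanogaster, and 19.5% lower and 6.76% higher than in simulans. In mauritiana against sechellia 6.36% were lower and 16.5% higher.

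The wider list of muscle contractile genes holds 37 symbols, of which 13 were on the array under these symbols and 10 were tested, 7 of them beside the 3 described. In melanogaster testes 3 of these 7 were lower and 0 higher, where 13.9% of all genes were lower and 30.4% higher. Their median was -1.11, against 0.18 for all tested genes. They were Tm2, a tropomyosin (-2.17 ± 0.46, SE), Mlc1, the essential light chain of muscle myosin (-1.80 ± 0.57), and Zasp66, a Z-disc protein (-1.11 ± 0.43). In the melanogaster hybrid 1 of 7 was lower and 0 higher than in simulans (median -0.60, all genes 0.02), where 13.9% of all genes were lower and 9.69% higher. Against melanogaster 1 was lower and 1 higher (median -0.87, all genes 0.04), where 20.1% of all genes were lower and 10.3% higher. Both counts are near the background. The lower one was in both cases Act87E, another muscle actin, at -2.23 ± 0.66 (SE, adjusted p = 0.0167) from simulans and -2.39 ± 0.66 (adjusted p = 0.00827) from melanogaster. The higher one was RyR, the calcium release channel of muscle and other cells, at 1.06 ± 0.39 (adjusted p = 0.046). Act88F, Act79B and Act87E are the 3 muscle actins tested, and each was called lower in this hybrid than in both parents. Of all genes 13.9% were lower than in simulans and 20.1% lower than in melanogaster. Whether a spot of 1 actin also bound RNA of another was not tested, so these may not be 3 separate measurements. The alternatives that ended the calls of Act88F and Act79B were not run for Act87E. Mlc1, like Mlc2, was not called there, at -2.10 ± 0.81 (SE, adjusted p = 0.069) and -1.48 ± 0.81 (adjusted p = 0.186), although its hybrid arrays lay below all arrays of both parents.

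In the mauritiana hybrid Mlc1 was the 1 of these 7 lower than in simulans (-3.03 ± 0.81, SE, adjusted p = 0.041), where 0.842% of all genes were lower, with a list median of -1.63 against 0.04 for all genes. There 0 of 7 passed against mauritiana in limma (1 at an unadjusted p under 0.05, Act87E). Act87E lay at -2.05 ± 0.62 (adjusted p = 0.065) from mauritiana, with every hybrid array below every mauritiana array. In the sechellia hybrid RyR was the 1 of 7 lower than in simulans (-1.68 ± 0.39, SE), where 12.3% of all genes were lower, and Prm, paramyosin, the 1 higher than in sechellia (2.81 ± 0.72), where 5.4% were higher. Between hybrids RyR was the 1 of 7 called higher in the melanogaster hybrid than in the mauritiana hybrid (1.67 ± 0.39, SE). There 7.95% of all genes were higher. RyR was also the 1 of 7 higher than in the sechellia hybrid (2.27 ± 0.39), where 12.6% of all genes were, so this count is near the background. The sechellia arrays were low for other muscle genes than the 3 described, and they were noisy. Duplicate spots had an SD of 1.17, 1.74 and 1.66 on sechellia 1, 2 and 3, against 0.20 to 0.47 on the other arrays. Sechellia 2 and 3 held 2703 and 2526 exact zeros. Among the sechellia arrays the SD was 2.45 for Mlc1, 1.83 for Prm, 2.03 for TpnC73F and 0.15 for RyR (n = 3 each). The SEs that follow pool the spread of all groups. Against melanogaster 5 of 7 fell, with Mlc1 at -3.82 ± 0.81 (SE), Prm at -3.40 ± 0.72 and TpnC73F, a troponin C, at -2.97 ± 0.64, where 26.1% of all genes were lower. Against simulans 4 of 7 fell, with Mlc1 at -4.43 ± 0.81 and RyR at -2.08 ± 0.39, where 19.5% of all genes were lower. In mauritiana against sechellia 2 of 7, Mlc1 (2.44 ± 0.81) and Prm (2.36 ± 0.67), were higher, where 16.5% of all genes were. In the other species pairs 0 of 7 passed in limma, where at an unadjusted p under 0.05 there were 0 in simulans against melanogaster, 1 in mauritiana against melanogaster and 2 in mauritiana against simulans. Of the non-muscle list 2 genes were tested. Mlc-c, the essential light chain of non-muscle myosin, was higher in melanogaster testes than in whole males (1.23 ± 0.35, SE, adjusted p = 0.00713), with all 3 arrays above 0. There 30.4% of all genes were higher. Mlc-c was also higher in the mauritiana hybrid than in the sechellia hybrid (1.92 ± 0.50, SE), where 16% of all genes were. Profilin, encoded by chic, passed in 0 of the 16 comparisons in limma, and in 1 at an unadjusted p under 0.05.

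**Figure D3:**
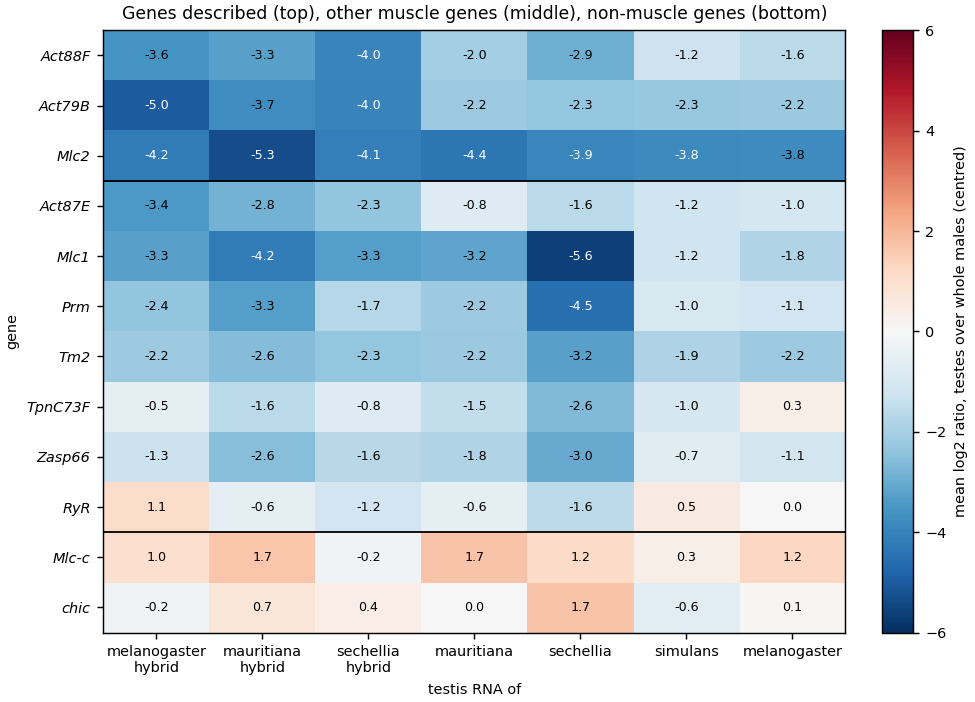
Mean centred log2 ratio of testes over whole males in each group (columns) for the 3 genes described, the 7 other muscle genes tested and 2 non-muscle genes (rows), with the value printed in each cell. Act87E is lowest in the 3 hybrids, as are Act88F and Act79B, while Mlc1 and Prm are lowest in sechellia.

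Differences between 2 genes on the same array do not depend on how that array was centred. The log2 ratio of Act79B minus that of Mlc2 ranged from -1.03 to -0.64 in the melanogaster hybrid. In simulans it ranged from 0.96 to 2.04, and in melanogaster from 1.15 to 2.15. The means in the hybrid differed by -2.36 from simulans and -2.32 from melanogaster, and no array overlapped. In a two-sided exact permutation test p was 0.1 each, the smallest that 3 against 3 arrays allow, and 0.265 after adjustment over 45 such tests, so a difference between the genes in their change was not shown. For Act88F minus Mlc2 the mean was 0.62 ± 0.23 in the melanogaster hybrid, 2.58 ± 0.45 in simulans and 2.18 ± 0.41 in melanogaster (SD, n = 3 each), again without overlap. In the mauritiana hybrid Act79B minus Mlc2, at 1.58 ± 0.42, lay beside 1.56 ± 0.55 in simulans (SD, n = 3 each), a difference of 0.02 (exact permutation p = 1, adjusted p = 1). Act79B minus Act88F was -1.42 ± 0.26 in the melanogaster hybrid, -0.65 ± 0.14 in melanogaster and -1.02 ± 0.17 in simulans (SD, n = 3 each). It was highest in sechellia, at 0.58 ± 0.22, where all arrays lay above those of simulans and melanogaster (exact permutation p = 0.1 for each, adjusted p = 0.265).

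**Figure D4:**
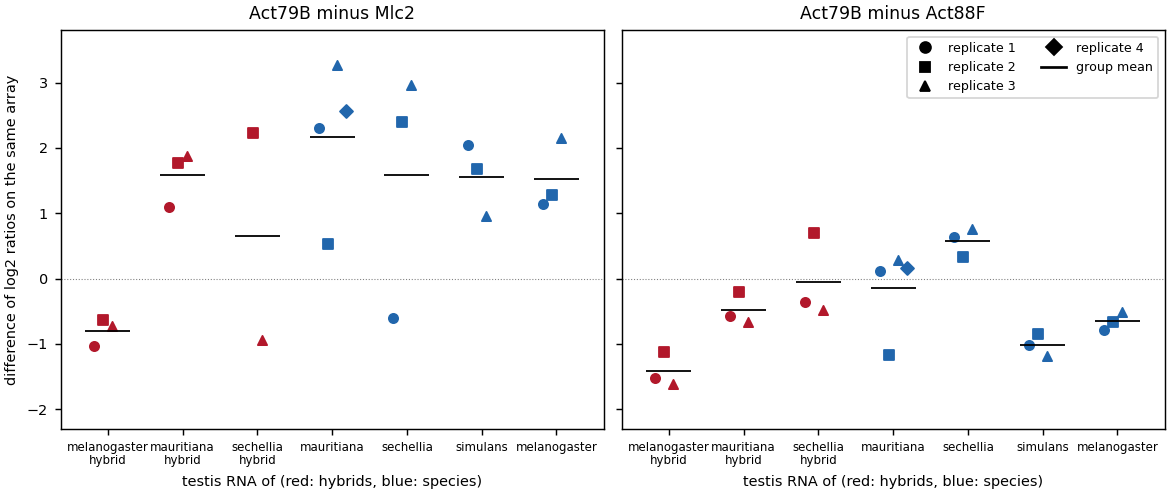
Difference of the log2 ratios of 2 genes on the same array (vertical axis) in each group, for Act79B minus Mlc2 and Act79B minus Act88F. Points are arrays, shapes replicate numbers and bars group means. For Act79B minus Mlc2 all 3 melanogaster hybrid arrays lie below 0, and all mauritiana hybrid, simulans and melanogaster arrays above it.

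Markers of other cells were measured on the same arrays. The median of 12 late spermatid genes on an array was -2.37 to -2.03 in the melanogaster hybrid, 0.92 to 1.61 in the mauritiana hybrid and -0.63 to -0.43 in the sechellia hybrid. It was 1.19 to 1.38 in simulans and 1.77 to 2.27 in melanogaster. Of the 12 genes 10 were lower in the melanogaster hybrid than in simulans, where 13.9% of all genes were lower, and 12 lower than in melanogaster, where 20.1% were. In the mauritiana hybrid, where Act88F and Act79B also lay below all simulans arrays, 0 of the 12 passed against simulans in limma. At an unadjusted p under 0.05, in either direction, 5 did, a cut for which the share of all genes was not counted. By the adjusted p, 0.842% of all genes were lower there and 2.76% higher. The median difference of the 12 genes was 0.58, against 0.04 for all genes. The median of 6 accessory gland and duct genes was 0.48 to 0.64 in the melanogaster hybrid, -0.86 to -0.21 in the mauritiana hybrid and -3.23 to -0.83 in the sechellia hybrid. It was -2.72 to -2.03 in simulans and -3.50 to -3.34 in melanogaster, and 4 of 6 genes were higher in the melanogaster hybrid than in melanogaster, where 10.3% of all genes were, among them Acp53Ea, a seminal fluid protein gene (6.52 ± 0.51, SE). Gut markers (9 genes) had medians of -3.17 to -2.81 in the melanogaster hybrid, -3.65 to -3.18 in simulans and -4.04 to -3.09 in melanogaster. Eye and nervous system markers (7 genes) lay at -1.31 to -0.78, -1.42 to -0.98 and -1.47 to -1.27 in the same 3 groups, and fat body and blood markers (5 genes) at -0.14 to 0.02, -0.14 to 0.16 and -0.50 to -0.19. Of the testis somatic list 1 gene was tested, at -0.53 to 0.05, -0.95 to -0.41 and -0.77 to -0.40. In the mauritiana and sechellia hybrids the gut medians were -3.70 to -3.11 and -4.17 to -3.18, those of eye and nervous system -1.93 to -0.56 and -2.05 to -0.79, those of fat body and blood -0.72 to -0.30 and -0.74 to -0.18, and the testis somatic gene lay at -0.65 to -0.27 and -0.33 to 0.06. The part of these other cells in the values of the muscle genes was not tested.

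Among the mauritiana arrays, mauritiana 4 held the highest Act88F, Act79B and Mlc2, and the median of the other 7 muscle genes was highest there as well, at -1.17, against -1.46, -2.38 and -2.27 on mauritiana 1, 2 and 3. Mauritiana 2 held the lowest actin values and the lowest of these medians. In the sechellia hybrid, array 2, with the highest actin values, also had the highest such median, -1.07, against -1.46 and -2.22 on arrays 1 and 3. The accessory gland median on that array was -0.83, against -3.23 and -3.20 on the other arrays.

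The genes whose values ran most like these were ranked by Pearson's r over the arrays, among up to 5089 tested genes with at least 18 arrays in common. These correlations are descriptions. The arrays fall into groups and share the whole-male RNA, and genes are not independent. Act79B ran closest to Act87E (r = 0.93, n = 22 arrays), then to CG3982 (0.91), betaNACtes3 (0.90), CG32081 (0.89) and Rrp6 (0.89), with Act88F at rank 7 (0.87). Act88F ran closest to CG4631 (0.88), Mpcp1 (0.87, n = 21), Act79B (0.87), Act87E (0.86) and CG15711 (0.86). After the group means were removed, r was 0.95 for Act88F with Act79B, 0.94 for Act88F with Act87E and 0.91 for Act79B with Act87E. Mlc2 had r = 0.39 with Act88F and 0.35 with Act79B (n = 21), and 0.60 and 0.46 without the sechellia arrays. It ran closest to verm (0.83, n = 21), a chitin deacetylase, CG11760 (0.77), tth (0.77, n = 20), CG31904 (0.76, n = 19) and snu (0.74, n = 19). Of the muscle list Zasp66 (0.61), Prm (0.51) and Mlc1 (0.48, n = 20) were nearest to Mlc2, and without the sechellia arrays these 3 had r = 0.89, 0.78 and 0.69.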

How the data were processed

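The deposited table holds 1 log2 ratio per spot and array, testes over whole flies, with the direction read from the titles and dyes in the labels. Base 2 is inferred from the values. The scanner, filters and within-array normalization are not given in the sources used here. Of 27648 rows, the platform's probe table gave 15116 a single gene symbol and 102 several symbols, and 12430 were absent from it. Rows with a single symbol were centred per array on their median and averaged per gene (6793 genes). The 5107 genes measured by 2 or more arrays in every group were fitted in R 4.3.3 by limma 3.58.1 (group means over all 22 arrays, lmFit, eBayes), with Benjamini-Hochberg adjustment over these genes in each of 16 comparisons. The fit was tested on simulated data. Differences between genes on the same array were tested by exact permutation over arrays, adjusted over 45 tests.

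The 3 genes, the 8 gene lists and the alternatives were chosen with earlier results of these data known. Beside the 3 genes, the rule named relatives, up to 3 called muscle genes per comparison, up to 2 genes of each other list, and the 5 genes most alike. Alternatives were: no centring; centring on the tested genes; arrays scaled to 1 spread; quantile normalization; only the 3021 genes seen by every array, or the 6510 seen by any array in each group; a single row for each gene; the spread of the compared arrays; array weights; the replicate block; close pairs averaged; no sechellia arrays; zeros as missing; a 2-fold minimum; and each array left out. Leaving out mauritiana 2 and sechellia hybrid 2 together, and averaging other sets of array pairs (2 and 5 pairs), were added after seeing the data.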

Additional observations from a re-analysis of the deposited data

How the results depend on the processing

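The number of calls among the 3 genes moved with several settings. In melanogaster testes all 3 genes passed, and only Mlc2, 1 gene, passed with a 2-fold minimum. Against parent species 5 of 18 tests passed. That became 8 with the spread of the arrays compared alone, 14 with array weights, 9 without mauritiana 2 and sechellia hybrid 2, and 0 with 3, 2 or 5 array pairs averaged or a 2-fold minimum. Leaving out single arrays gave 2 (without melanogaster hybrid 1) to 8 (without sechellia hybrid 2). Between species 0 of 18 passed, against 3 after quantile normalization, 1 with genes on all arrays, 5 with array weights, 1 with the replicate block, 1 without the 2 arrays that stand apart, and 0 to 1 with single arrays left out. Between hybrids 0 of 9 passed, 2 with the spread of the arrays compared alone and 4 with array weights, which ran from 0.12 for sechellia 1 to over 10 for simulans 1 and 2. After quantile normalization Mlc2 reversed in sechellia, to 2.20 against melanogaster and 2.84 against simulans; the cause was not tested. Both were uncalled before. Of the 48 differences the 8 called ones kept their sign under every alternative run, and 86 further changes of sign were of uncalled differences. Mlc2 has no value on 1 array, so genes on all arrays gave none for it, and neither did 1 row per gene.

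Little sign was seen that replicate numbers pair the samples. Deviations of arrays with the same number correlated at a median of 0.04, and 20 of 63 pairs exceeded 0.1. With different numbers the median was -0.04, and 43 of 144 pairs exceeded 0.1. Whether some groups shared a batch was not tested. With the replicate block 5 of 18 hybrid tests passed. In melanogaster testes 2 of 3 genes did, but there the fit draws on mauritiana 4, the only replicate 4.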

Other observations

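A further 3 genes of the muscle list had too few values to be tested. TpnC4, a troponin C, lay at -3.39 ± 0.24 in the melanogaster hybrid and -0.65 ± 0.32 in simulans (SD, n = 3 each), and at -1.38 ± 0.79 in melanogaster (SD, n = 3). TpnC41C, another troponin C, lay at -4.49 ± 0.14 in the melanogaster hybrid and -1.84 ± 0.13 in simulans (SD, n = 3 each), with 2 melanogaster arrays at -3.59 and -2.24. For both genes every melanogaster hybrid array was below every array with a value of the 2 parents. The share of all genes for which this held was not counted. Actn, the actinin that ties actin filaments to the Z-disc, lay at -0.99 ± 0.06 in the melanogaster hybrid, -1.38 ± 0.41 in simulans and -1.61 ± 0.42 in melanogaster (SD, n = 3 each). Its hybrid arrays, from -1.06 to -0.94, overlapped simulans and lay above melanogaster, at -1.92 to -1.14.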
